A study of Mus musculus with 8 samples.

Results

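The oxidative stress and metal response genes were a fixed list of 10 mouse genes: Nfe2l2, Keap1, Hmox1, Nqo1, Gclc, Gclm, Txnrd1, Srxn1, Mt1 and Mt2. Their cytosines were taken from 2 kb before the start of transcription to the end of the gene on mm10 (GRCm38.p6), with the start set at the most upstream curated RefSeq transcript. The rule used no methylation value. All 10 genes had covered cytosines. They held 757 of the 2130064 cytosines used, on 115 fragments between neighbouring CCGG sites, the letters that the enzyme MspI cuts.

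DNA methylation was measured by reduced representation bisulfite sequencing (RRBS), which reads the CpG-rich ends of MspI fragments and scores each cytosine of a CpG as methylated (read as C) or unmethylated (read as T). The 8 samples were labelled type A spermatogonia, the early postnatal male germ cells, and came from F1 male C3H/HeN mice at postnatal day 6. The 4 control pools came from dams given tap water. The 4 arsenic pools came from dams that drank 85 ppm sodium arsenite in tap water from gestational day 8 to 18. Every sample of both groups was a pool of 8 testes from 4 mice, sorted with magnetic beads on CD49f (Itga6), a surface protein that cells other than spermatogonia can also carry. A pool gives the mean over its cells, so an intermediate level from fewer methylated cells and one from partly methylated cells cannot be told apart.

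Arsenic and other electrophiles modify cysteines of KEAP1, the adaptor that marks the transcription factor NRF2 (gene Nfe2l2) for destruction. NRF2 that escapes binds antioxidant response elements (AREs) and switches on genes for heme breakdown, quinone reduction, glutathione synthesis and thiol repair. The metallothioneins Mt1 and Mt2 bind zinc, cadmium and other metals, and are induced through metal response elements (MREs) by the zinc-sensing factor MTF1. CpG-rich starts of such genes are usually free of methylation, whereas the bodies of expressed genes usually carry it.

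Coverage summed over the cytosines used came to 96428439 to 133406260 per pool. A read counts there once for each cytosine it covers, so this is not a number of reads. The median coverage of the members' cytosines was 31 to 42 reads per pool. Cytosines of the mitochondrial genome, which should read as unmethylated, stood at 1.77% to 2.07% in the 8 pools. The cell label was compared with genes of known state. Promoters that carry methylation on the maternal allele in body cells are unmethylated in male germ cells. Here the 8 of 14 that were covered averaged 58.0% to 65.9% in the control pools and 55.3% to 65.8% in the arsenic pools, the lowest being Peg13 at 52.9%. Promoters of germ cell genes that body cells methylate, 10 of 12 covered, averaged 80.7% to 85.2% and 81.0% to 82.9%, with Dazl at 94.9% and Ddx4 at 80.2%, and none was near 0. Both values go against the label. The paper reports more mRNA of Itga6 and Gfra1, markers of type A spermatogonia, in this fraction than in one sorted from fetal testes. That comparison is relative to the fetal fraction. It also reports that methylation profiles grouped by germ cell stage. Ahead of the H19 gene, where male germ cells carry methylation, 4 cytosines averaged 66.3%, with pools at 58.1% to 81.2%. That level is neither absent nor full, so it does not settle the label. The levels below are therefore those of the sorted cells whatever their type. What these cells contribute to each level was not tested.

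The 10 genes were less methylated than the covered genome in general. Of the 757 cytosines, 55.7% had a mean level under 5%, compared with 26.5% of all cytosines used, and 24.7% were at 80% or more, compared with 43.2%. Only 10.6% lay between 20% and 80%, against 23.4% of all. No methylated read was seen in any pool at 120 of the 757 (15.9%, against 7.41% of all cytosines). The reads there numbered 134 to 1154 over the 8 pools, so a count of 0 still allows a level of up to 2.24% at the thinnest and 0.260% at the deepest of them. Mt1, Mt2, Hmox1, Nqo1 and Nfe2l2 had no cytosine at 80% or more, whereas 137 of the 256 in Txnrd1 and 28 of the 60 in Keap1 reached it.

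**Figure D1:**
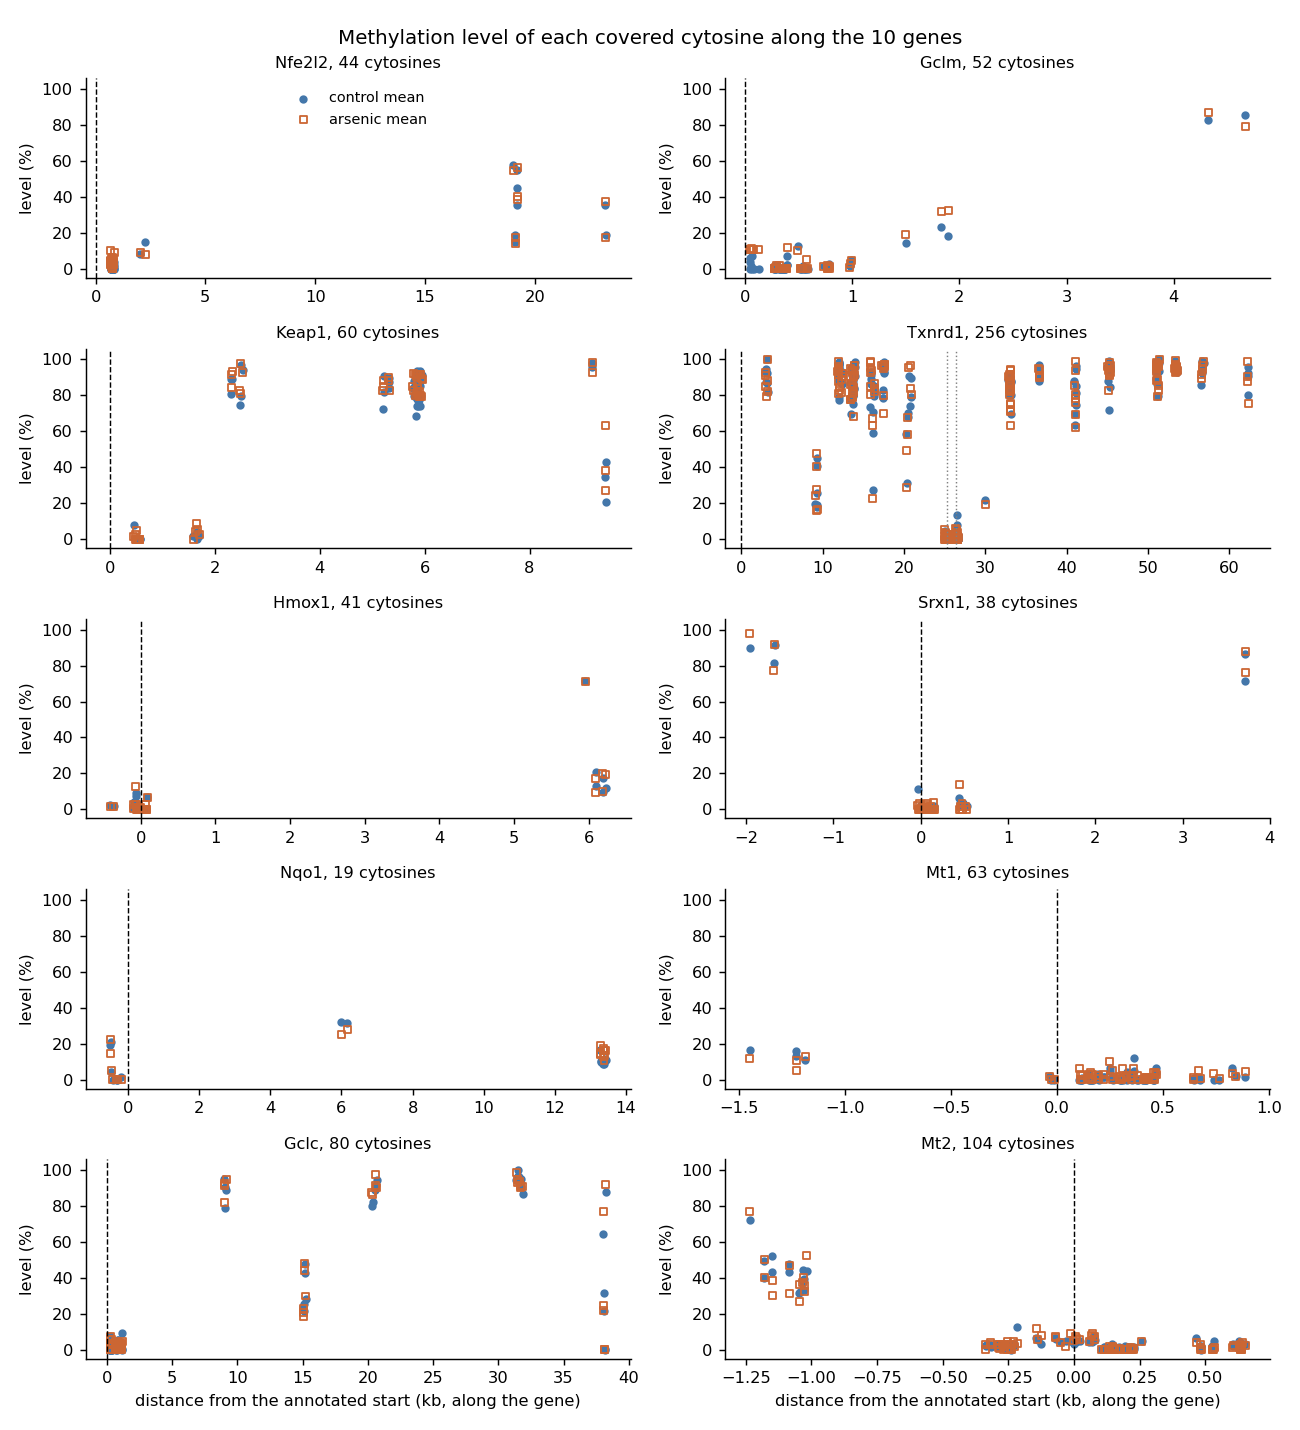
Mean methylation level (%, vertical axis) of every covered cytosine of the 10 genes against its distance from the annotated start (kb, horizontal axis), for the 4 control pools (filled circles) and the 4 arsenic pools (open squares). The dashed line is the annotated start and the dotted lines in Txnrd1 are its inner starts. Cytosines near a start lie near 0%, those of Gclc, Txnrd1 and Keap1 further in reach 80% or more, and the symbols of the groups mostly coincide.

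A differentially methylated cytosine (DMC) was called where the coverage-weighted group levels differed by at least 10 percentage points at q of at most 0.01 in a likelihood-ratio test on the read counts, with q adjusted over all cytosines. None of the 757 member cytosines was a DMC, while 0.552% of all cytosines were called (11752 of 2130064, 6885 lower and 4867 higher in arsenic). An unadjusted p under 0.05 was reached at 117 members (15.5%) compared with 17.8% of all cytosines. That test treats reads as independent. With the spread between pools in the error (overdispersed F test), 0 members and 0 cytosines of the whole table were DMCs, and 22 members (2.91%) had an unadjusted p under 0.05, against 3.87% of all. In limma 0 members and 0 cytosines of the whole table were DMCs, and 21 members (2.77%) had an unadjusted p under 0.05, against 5.11% of all.

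At 8 of the 757 cytosines (1.06%) no arsenic pool overlapped the range of the control pools, against 2.10% over all cytosines. These shares, like the DMC shares above, were not matched for level. Of the members 55.7% were under 5%, against 26.5% of all. Groups that both hold a pool without methylated reads overlap by definition. Arsenic was the lower group at 6 of the 8 and the higher at 2. They were spread over Nqo1, Gclc, Keap1, Mt1, Mt2 (1 each) and Txnrd1 (3). The test had 4 pools against 4, for which the smallest two-sided p an exact permutation test can give is 0.0286.

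**Figure D2:**
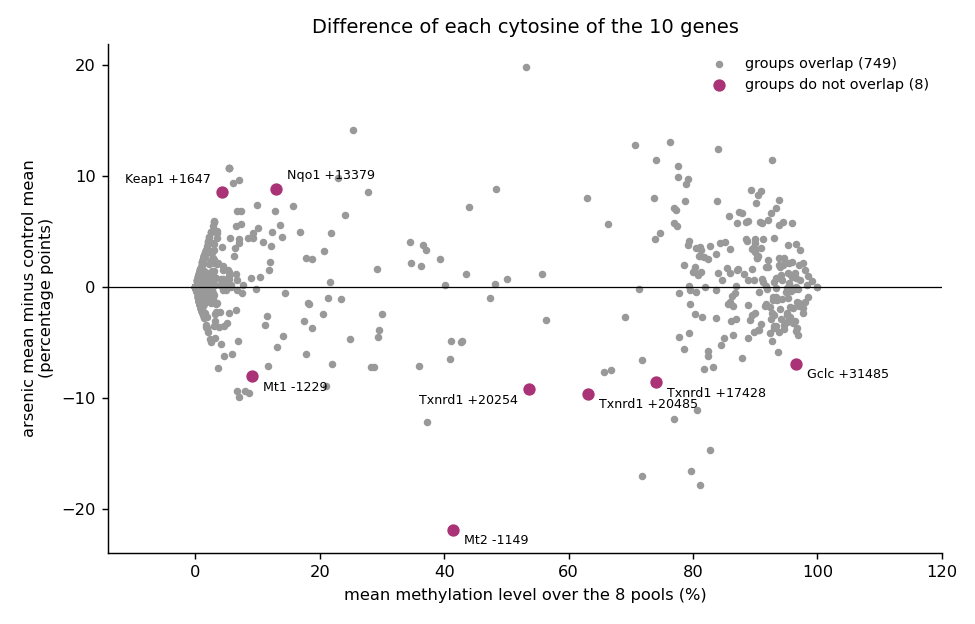
Arsenic mean minus control mean (percentage points, vertical axis) against the mean methylation level over the 8 pools (%, horizontal axis) for the 757 cytosines. The 8 labelled points, named by gene and distance from the start in bases, are those whose groups did not overlap; the lowest, Mt2 −1149, stands at −21.8 points and no point was a DMC.

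Promoters were taken from 1 kb before to 100 bases after the start and needed at least 3 covered cytosines. This held for 6 of the 10 members: Hmox1 (35 cytosines), Nqo1 (7), Gclm (7), Srxn1 (14), Mt1 (3) and Mt2 (38). The promoters of Nfe2l2, Keap1, Gclc and Txnrd1 hold 55, 31, 44 and 18 CpGs in the reference but had no covered cytosine, so nothing was measured there. Of the 6, 4 were under 5%, as were 71.9% of the 11960 promoters measured, and the median level was 2.53% compared with 1.79% over all. No member promoter passed an adjusted p of 0.05 in the overdispersed logistic regression (adjusted p 0.90 to 1.00), and neither did any other promoter (0% called). At an unadjusted p under 0.05 there were 0 of the 6 and 5.03% of all, and in limma again 0 and 5.45%. No member promoter had groups that did not overlap, compared with 2.95% of all promoters. Without the spread between pools the likelihood-ratio test called 31.0% of all promoters and 2 of the 6 members, Gclm and Mt2, each of which had 1 pool far from the others of its group.

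Gene bodies ran from the end of the promoter to the gene end, and all 10 were measured. Their median level was 12.3%, against 55.1% for the 19051 bodies measured. Medians were not matched for the position of the covered cytosines. In Gclc 52 of 80 lay at +258 to +1164 and in Nfe2l2 34 of 44 at +667 to +853. In Keap1 20 of 60 lay at +452 to +1695. Arsenic had the higher mean in 8 of the 10 with each cytosine weighted equally, whereas it was the lower group in 61.4% of all bodies. It was the higher group in only 5 of the 10 with coverage weights within each pool, in limma or with at least 20 reads per cytosine. The median of the equally weighted differences was 0.47 points in the members and −0.27 over all. No member body passed (adjusted p 0.882 to 0.991) and 0% of all bodies were called. An unadjusted p under 0.05 was reached by 0 of the 10 in this test and in limma, compared with 5.72% of all bodies in each. No member body had groups that did not overlap, compared with 3.89% of all. The likelihood-ratio test called 38.7% of all bodies and 2 of the 10, Nqo1 and Mt2.

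The stretch from 2 kb to 1 kb before the start was measured in Srxn1 (3 cytosines), Mt1 (4) and Mt2 (14). None passed (0% of 3905 called; adjusted p 0.960 to 0.994), and 0 of the 3 had an unadjusted p under 0.05, against 4.10% of all. In limma 1 of the 3 had one, against 5.04% of all, and 0 were called. None had groups that did not overlap, compared with 3.07% of all. The likelihood-ratio test called none of the 3 and 16.3% of all.

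**Figure D3:**
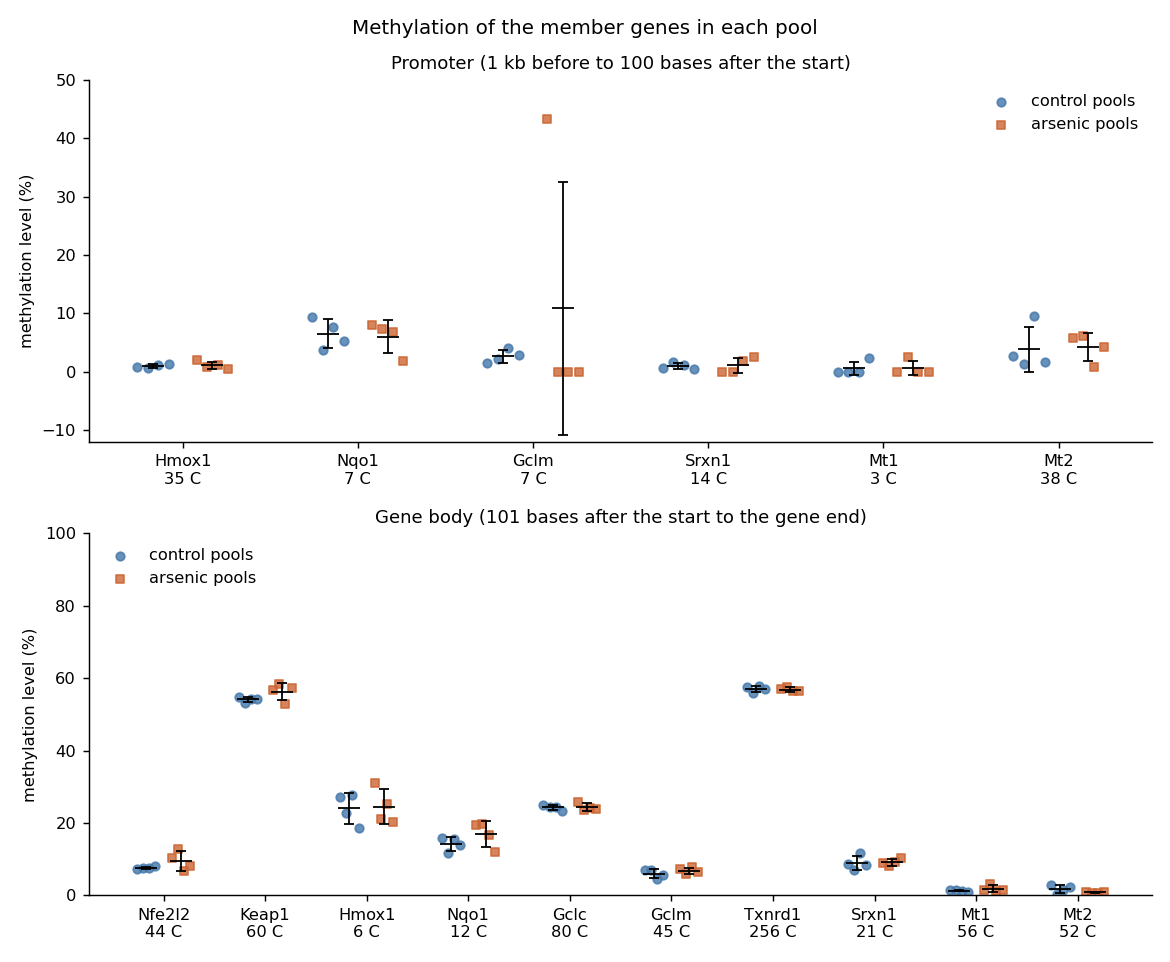
Mean methylation level (%, vertical axes) of the member promoters with at least 3 covered cytosines (top) and of the gene bodies (bottom) in each control pool (circles) and each arsenic pool (squares); the number under a gene is its covered cytosines (C), horizontal bars are group means and whiskers 1 SD (n = 4). The groups overlap for every gene, and the arsenic 1 pool of Gclm stands at 43.3%.

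Among the regulators, Nfe2l2 (chr2:75675513-75704663, minus strand) encodes NRF2 itself. Its body averaged 7.63% ± 0.27 in the control pools and 9.55% ± 2.71 in the arsenic pools (SD, n = 4), from 44 intronic cytosines. The control pools lay between 7.39% and 8.01%, while arsenic 1 and 2 were above them (10.4% and 12.9%), arsenic 4 was just above (8.21%) and arsenic 3 was below (6.70%). The difference of 1.92 points had an exact p of 0.286. On summed counts, which the adjusted p tests, the difference was 0.63 points (adjusted p = 0.965). The 34 cytosines at +667 to +853, in the first CpG-rich stretch covered after the start, differed by 2.81 points (exact p = 0.171). There the control pools stood at 0.42% to 1.95%, arsenic 3 and 4 at 1.05% and 0.99%, and arsenic 1 and 2 at 4.33% and 8.49%. The strands of that fragment went apart within a pool. In arsenic 2 the 17 cytosines of the plus strand averaged 15.7% and the 16 of the minus strand 0.21%, and in arsenic 1 they averaged 0% and 8.57%. Neighbouring cytosines of a strand lie on the same fragment and are not independent. Further in, at +19030 to +19209, the 6 cytosines were intermediate in every pool (31.8% to 42.2%).

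Keap1 (chr9:21229730-21239332, minus strand) encodes the adaptor that holds NRF2 in check. Its 20 cytosines from +452 to +1695, in the 5′ UTR and the first coding sequence, had mean levels of 0% to 4.64%. From +2307 on the gene was methylated, at 87.7% over 7 intronic cytosines and 84.7% over 28 at +5201 to +5955, most of them in coding exons. The 5 cytosines in the 3′ UTR averaged 61.2%, with 2 at 94.2% and 98.3% and 3 at 24.0% to 53.1%. The control pools stood at 51.7% to 61.7% there and the arsenic pools at 61.5% to 70%, which overlapped slightly, for a difference of 5.50 points (exact p = 0.0571, not adjusted). Over the whole body the levels were 54.2% ± 0.66 and 56.3% ± 2.46, the arsenic 3 pool being lower (52.8%) and the other arsenic pools higher than every control (exact p = 0.143). On summed counts the difference was 0.49 points (adjusted p = 0.991). At +1647, in coding sequence, no control pool had a methylated read, and the arsenic pools had 16.7%, 10%, 4.17% and 3.33% (q = 0.0934), over 10 to 30 reads per pool.

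Hmox1 (chr8:75093618-75100593, plus strand) encodes heme oxygenase 1, which breaks down heme and is one of the genes most strongly induced by arsenite. Coverage summed over its promoter cytosines was 1102 to 1636 per pool, where a read counts once for each cytosine it covers. Single cytosines had 11 to 42 reads per pool on the plus strand at −63 to +75. On the minus strand at −62 to +76 they had 14 to 52. The 35 cytosines averaged 0.866%, 0.682%, 1.15% and 1.39% in control pools 1 to 4, and 1.94%, 0.739%, 1.08% and 0.486% in arsenic pools 1 to 4. The arsenic pools spread beyond the control pools on both sides, and the means differed by 0.038 points (exact p = 0.943). The 16 differences between an arsenic and a control pool ran from −0.91 to 1.26 points, which is an exact 97.1% interval for a shift. The sequence is shown because it carries this unmethylated state. Capitals mark the CpGs covered on either strand, whose cytosines had mean levels of 0% to 10.01%.
Hmox1 promoter, chr8:75093468-75093616, plus strand: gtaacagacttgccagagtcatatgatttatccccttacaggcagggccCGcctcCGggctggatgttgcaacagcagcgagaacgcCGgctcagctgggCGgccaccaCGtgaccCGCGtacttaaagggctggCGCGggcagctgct
No match to the MRE and ARE letters, spelled out with Mt1 and Mt2, was found in the 250 bases before the Hmox1 start. The 6 cytosines in its introns, at +5954 to +6231, were higher and uneven, from 9.82% to 71.3%. Together they gave 24.1% ± 4.29 in the control pools and 24.5% ± 4.87 in the arsenic pools (exact p = 0.914).

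Nqo1 (chr8:107388225-107403205, minus strand) encodes NAD(P)H quinone dehydrogenase 1, a classical NRF2 target. Its 7 promoter cytosines, −497 to −191, stood at 20.7% and 17.8% at the far end and at 0% to 4.50% nearer the start. The promoter as a whole stood at 9.33%, 3.71%, 7.66% and 5.31% in control pools 1 to 4 and at 8.04%, 7.30%, 6.80% and 1.84% in arsenic pools 1 to 4, with overlapping groups (exact p = 0.8). The body had the largest difference of the 10 bodies, with 14.2% ± 1.88 in control and 17.0% ± 3.56 in arsenic pools, 2.79 points that did not pass (exact p = 0.200, adjusted p = 0.899). The 10 intronic cytosines at +13276 to +13432 all had a higher mean in arsenic. Over these 10 the control pools stood at 13.9%, 6.83%, 12.8% and 9.16%, and the arsenic pools at 17.3%, 18.7%, 14.7% and 9.73%, so that 3 arsenic pools lay above every control and arsenic 4 within them (exact p = 0.114). The other 2 intronic cytosines, +5995 and +6166, were lower in arsenic by 5.50 points (exact p = 0.200). The stretch is shown because it holds the member cytosine with the lowest q. Capitals mark the covered CpGs.
Nqo1 intron, chr8:107389772-107389932, minus strand: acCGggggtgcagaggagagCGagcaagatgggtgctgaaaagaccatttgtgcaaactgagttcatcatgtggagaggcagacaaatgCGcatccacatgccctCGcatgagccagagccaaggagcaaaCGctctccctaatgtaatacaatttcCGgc
This cytosine, at +13379, was at 7.77%, 3.54%, 11.1% and 11.9% in control pools and at 15%, 20%, 19.1% and 15.7% in arsenic pools, over 80 to 170 reads per pool. Every arsenic pool was above every control pool, and the coverage-weighted difference was 9.26 points (q = 0.00494), short of the 10 points that a DMC needs. Without control 4 or arsenic 4 it passed them, at 10.6 and 10.1 points. With the spread between pools in the error its adjusted p was 0.893. Its partner on the opposite strand, +13380, differed by 1.51 points.

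Gclc and Gclm encode the catalytic and the modifier subunit of glutamate-cysteine ligase, the enzyme that limits glutathione synthesis. In Gclc (chr9:77754535-77794489, plus strand) the 52 cytosines at +258 to +1164 averaged 1.71%, with pools between 0.415% and 3.55%. Beyond them 4 intronic cytosines from +8997 on averaged 89.4% and 7 from +31384 on averaged 93.8%. Within this methylated body an intronic group at +15061 to +15249 stood at 31.3%, from 23.6% to 39.3% in control pools and from 29.8% to 32.5% in arsenic pools. It is shown as an intermediate stretch within a methylated gene, with capitals at the covered CpGs.
Gclc intron, chr9:77769584-77769794, plus strand: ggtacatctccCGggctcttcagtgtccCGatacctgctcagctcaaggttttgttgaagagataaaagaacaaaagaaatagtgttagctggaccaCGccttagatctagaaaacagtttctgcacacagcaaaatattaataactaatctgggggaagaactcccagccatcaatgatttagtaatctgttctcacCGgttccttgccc
The whole Gclc body was nearly the same in every pool, 24.3% ± 0.72 against 24.4% ± 1.02, and the 16 differences between pools ran from −1.30 to 2.60 points. At +31485 all 4 control pools were at 100% and the arsenic pools at 94.7%, 96.2%, 97.8% and 83.8% (q = 0.0728), while its partner at +31484 differed by −2.08 points.

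In Gclm (chr3:122245557-122267215, plus strand) the promoter had 1 pool apart. Its 7 cytosines, +46 to +82 in the 5′ UTR, averaged 1.48%, 2.20%, 4.08% and 2.86% in the control pools, 43.3% in arsenic 1, and 0% in arsenic 2, 3 and 4. The mean difference of 8.18 points had arsenic 1 as its only raised pool (exact p = 1, adjusted p = 0.907). Without that pool the difference was −2.66 points and the groups did not overlap. At +46, 6 of 14 reads of arsenic 1 were methylated (42.9%, 95% Wilson interval 21.4% to 67.4%, counting error only), and the same share recurred at 7 of the 8 cytosines of the fragment up to +129, all of which had 13 or 14 reads in that pool. Those 8 cytosines are of the plus strand. Over the 19 cytosines of the next fragment measured, at +275 to +391 on the minus strand, arsenic 1 stood at 0.66%. Fragment and strand thus change together there. Over 9 cytosines of the plus strand at +495 to +585, arsenic 1 stood at 1.39%. The Gclm body did not set arsenic 1 apart, with 4.57% to 6.94% in control pools and 5.87% to 7.81% in arsenic pools (exact p = 0.343).

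**Figure D4:**
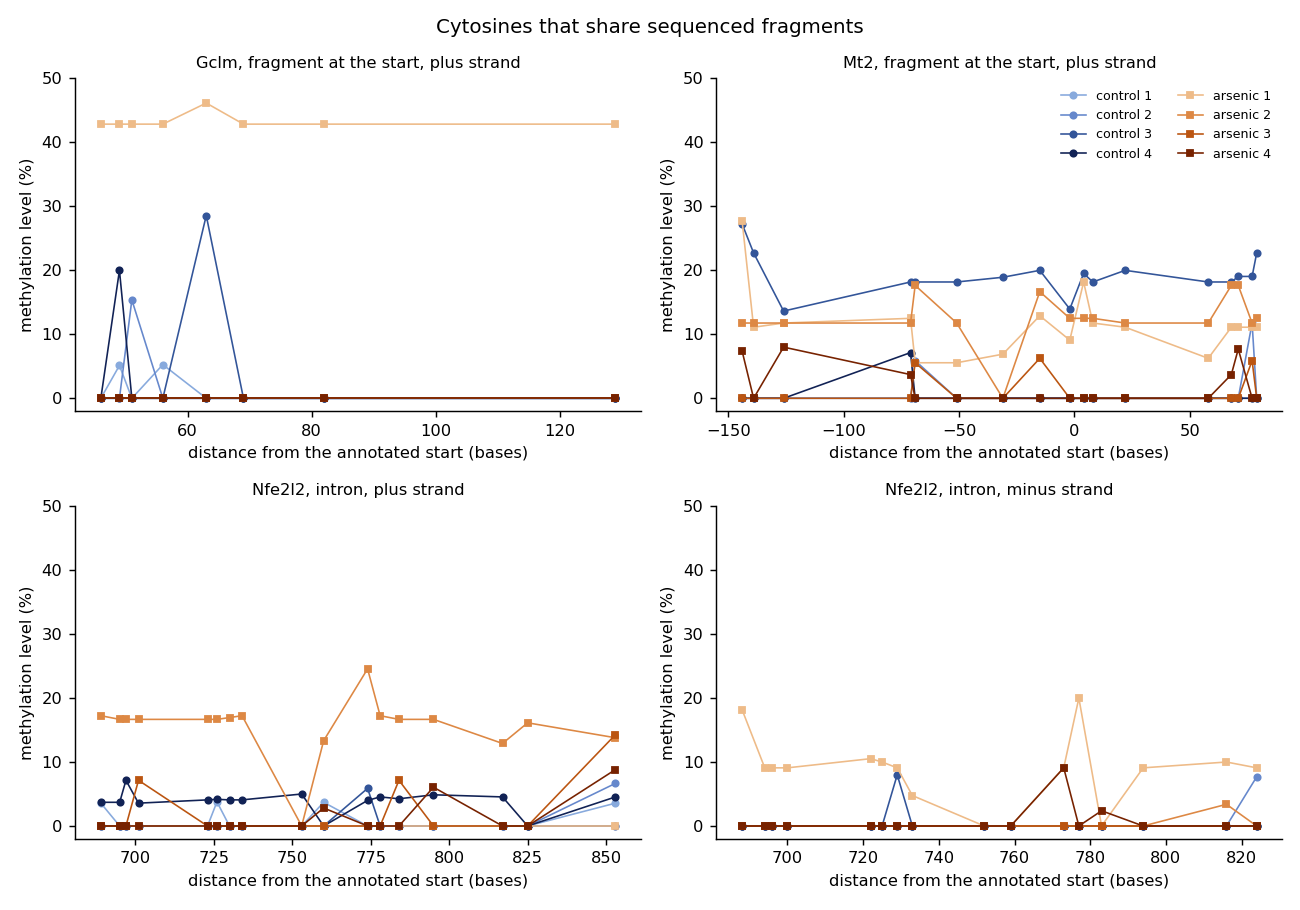
Methylation level (%, vertical axes) of neighbouring cytosines of 1 strand against the distance from the annotated start (bases, horizontal axes), 1 line per pool (circles control, squares arsenic), at the starts of Gclm and Mt2 and in the Nfe2l2 intron. Arsenic 1 stays near 43% along the Gclm fragment, control 3 averages 19.2% along the Mt2 fragment, and in Nfe2l2 arsenic 2 is raised on the plus strand and arsenic 1 on the minus strand.

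Txnrd1 (chr10:82833951-82897724, plus strand) encodes cytosolic thioredoxin reductase 1, which keeps thioredoxin reduced and whose selenocysteine is a known target of arsenicals. It held 256 cytosines, the most of the 10 genes, all of them in the body as its most upstream start was not covered. The body average, 57.0% ± 0.87 in control and 56.9% ± 0.60 in arsenic pools, joined very unlike parts. RefSeq gives inner starts at +25256 (2 transcripts) and +26391 (1 transcript). Around them 50 cytosines at +24982 to +25400 averaged 0.72% and 36 at +25907 to +26645 averaged 1.11%. On either side most of the gene was methylated, at 79.4% to 91.4% in the groups of cytosines between +11842 and +17596 and at 81.1% to 95.6% in those between +32814 and +62334. Nearer to the low stretch the 8 cytosines at +20254 to +20891 averaged 70.1% and the single one at +30012 20.5%, and 6 further upstream, at +9103 to +9310, averaged 28.4%. With the promoters of all starts joined, 67 cytosines stood at 0.86% ± 0.35 in the control and 0.86% ± 0.47 in the arsenic pools, and the other 189 at 76.9% ± 1.14 and 76.7% ± 0.80. The joined promoters stood at 0.29% to 1.39% in the 8 pools. The 250 bases before the first inner start are shown because they lie in this low stretch of a methylated gene, with capitals at the covered CpGs, whose cytosines had means of 0% to 3.16%.
Txnrd1 inner promoter, chr10:82858956-82859205, plus strand: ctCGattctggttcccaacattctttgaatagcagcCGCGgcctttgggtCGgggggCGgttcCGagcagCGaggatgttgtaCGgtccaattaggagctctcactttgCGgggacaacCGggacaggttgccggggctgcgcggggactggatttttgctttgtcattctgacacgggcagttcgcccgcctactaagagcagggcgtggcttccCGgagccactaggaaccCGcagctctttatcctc
At 3 intronic cytosines upstream of it all arsenic pools were below all control pools. At +17428 the levels were 78.4% ± 3.76 in control and 69.8% ± 2.34 in arsenic, at +20254 they were 58.3% ± 5.33 and 49.1% ± 1.90, and at +20485 they were 67.9% ± 3.09 and 58.3% ± 2.87. None reached a q of 0.1 (q = 0.277, 0.145 and 0.486). The 8 cytosines at +20254 to +20891 together differed by −0.20 points, so their mean was close to equal in the groups.

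Srxn1 (chr2:152105524-152111376, plus strand) encodes sulfiredoxin, which repairs overoxidised peroxiredoxins. The 33 cytosines at −33 to +527 averaged 1.28%, flanked by 88.3% over 3 cytosines at −1959 to −1674 and 80.5% over 2 in the 3′ UTR. Its promoter stood at 0.621%, 1.65%, 1.19% and 0.397% in the control pools and at 0%, 0%, 1.76% and 2.47% in the arsenic pools. The groups overlapped and differed by 0.092 points (exact p = 0.914). The body averaged 8.89% ± 2.01 and 9.11% ± 0.87.

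Mt2 (chr8:94172618-94173567, plus strand) and Mt1 (chr8:94179089-94180327, plus strand) are neighbouring genes for metallothioneins, small cysteine-rich proteins, and had 104 and 63 covered cytosines. Both had low levels over the transcribed part, with cytosine means under 10%. The Mt1 body averaged 1.32% ± 0.22 in control and 1.85% ± 0.95 in arsenic pools, with arsenic 2 at 3.24% and the other 7 pools at 1.01% to 1.57%. The Mt2 body averaged 1.84% ± 1.04 and 0.85% ± 0.12, with the arsenic pools within 0.73% to 1.02% and the control pools spread from 0.52% to 2.99% (exact p = 0.143, adjusted p = 0.882). The 16 differences ran from −2.26 to 0.49 points. Body levels of this size are near the 1.77% to 2.07% read at mitochondrial cytosines. On the plus strand control 1 averaged 6.28% over 14 cytosines at +114 to +227, and control 4 averaged 8.45% over 11 at +466 to +639.

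The letters bound in these promoters were searched as the MRE core, TGCGCNC or TGCACNC, and the ARE core, TGACNNNGC, on both strands. In the 250 bases before the start, 15.02%, 10.6% and 10.4% of 26174 promoters hold each of them, and 23.8% hold either MRE spelling. Among the 6 members with a covered promoter, Mt2 holds 3 MRE matches and 1 ARE match there, Gclm 2 and 1, Mt1 and Srxn1 1 MRE match each, and Hmox1 and Nqo1 none. No cytosine in the Gclm matches was covered, and the 1 in the Srxn1 match stood at 0%. The Mt2 sequence is shown with these matches in capitals, since 2 of them hold covered cytosines.
Mt2 promoter, chr8:94172368-94172617, plus strand: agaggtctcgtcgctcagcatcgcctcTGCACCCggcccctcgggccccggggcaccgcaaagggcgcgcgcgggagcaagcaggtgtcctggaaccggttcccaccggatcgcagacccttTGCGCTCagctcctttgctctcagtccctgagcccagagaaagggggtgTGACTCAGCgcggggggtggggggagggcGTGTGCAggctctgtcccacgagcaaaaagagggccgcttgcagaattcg
In the match TGCGCTC the covered cytosine at −126 averaged 5.65%, and the last letter of TGACTCAGC at −71, also a covered cytosine, averaged 6.66%. The groups overlapped at both (q = 0.777 and 0.968), with 0% in 3 and 2 of the control pools and 0% in arsenic 3. Both lie on the fragment whose 17 cytosines of the plus strand, −144 to +79, averaged 19.2% in control 3, 11.5% and 12.6% in arsenic 1 and 2, and 0% to 1.79% in the other 5 pools. The Mt2 promoter as a whole stood at 9.61% in control 3, at 1.39% to 2.65% in the other control pools and at 0.77% to 6.18% in the arsenic pools (exact p = 0.914). Its unweighted means differed by 0.42 points and its summed counts by −1.09 points (adjusted p = 0.917). As in Nfe2l2, the strands could go apart within a pool. At −337 to −229 the 10 cytosines of the plus strand stood at 10.1% in control 1 and 11.8% in arsenic 4, and those of the minus strand at 0% and 1.08%.

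Mt1 holds more of these letters just after its annotated start than before it. Which start these cells use was not analysed here, so promoter, 5′ UTR and body of Mt1 are as the RefSeq start places them. In the first 250 bases 4 MRE matches and 1 ARE match were found, and 1.43% of 26175 genes hold 3 or more MRE matches in that window. Mt2 also has 4 MRE matches there. At +99 to +105 of Mt1, in the RefSeq 5′ UTR, the last letter of an MRE match is a covered cytosine, so the site is shown with the match in capitals.
Mt1 site, chr8:94179181-94179200, plus strand: acccttTGCGCCCggactcg
This cytosine, +105, was at 0% in all 4 control pools and at 6.67%, 11.1%, 0% and 6.25% in the arsenic pools (q = 0.0447). The levels overlapped at 0%, and the 3 cytosines before the start averaged 0.575% ± 1.15 and 0.617% ± 1.24, from a single cytosine, −34, with methylated reads in control 4 and arsenic 2.

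Upstream of both metallothionein genes the level was higher than in the genes. For Mt1 the 4 cytosines at −1448 to −1186 stood at 19.6%, 14.4%, 9.13% and 13.1% in control pools and at 11.1%, 10.2%, 9.003% and 9.69% in arsenic pools. The arsenic pools were narrower and mostly lower, by 4.05 points in the mean, with control 3 among them (exact p = 0.114, adjusted p = 0.960). At −1229 all arsenic pools (3.70% to 7.53%) were below all control pools (9.33% to 17.4%; q = 0.0825), and the partner on the other strand, −1230, differed by −5.98 points.

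Upstream of Mt2 the 14 cytosines at −1235 to −1019 formed an intermediate stretch, from 29.4% to 74.7% per cytosine. It is shown because it holds the largest member difference without overlap, with capitals at the covered CpGs.
Mt2 upstream stretch, chr8:94171378-94171608, plus strand: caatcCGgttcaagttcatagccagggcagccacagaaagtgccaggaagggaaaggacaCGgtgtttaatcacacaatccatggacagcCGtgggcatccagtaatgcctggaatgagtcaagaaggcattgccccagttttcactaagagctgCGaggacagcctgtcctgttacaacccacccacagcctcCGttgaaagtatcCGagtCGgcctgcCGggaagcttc
At −1149 the control pools stood at 48.6%, 43.5%, 71.0% and 46.2% and the arsenic pools at 38.5%, 40.6%, 27.3% and 15.6%. All arsenic pools were lower, by 19.8 points with coverage weights (q = 0.0238, 0.893 with the spread between pools in the error). With arsenic 2 left out it was a DMC, at −26.2 points. The same CpG on the opposite strand, −1150, was read at 35.3%, 49.2%, 41.0% and 48.8% and at 30.7%, 50.7%, 41.9% and 31.7%, with overlapping groups and a difference of −4.93 points. Over the 14 cytosines the groups stood at 43.7% ± 5.84 and 41.3% ± 6.47 (exact p = 0.571).

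Over the 10 genes, 231 CpGs were covered on both strands, and the mean levels of the strands differed by a median of 1.35 points and at most 18.8 points. Of the 177 CpGs with a difference other than 0 on both strands, 90 had the same sign on both and 87 the opposite sign.

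The wider pathway was read from 7 lists of 96 genes, covering NRF2 regulators, glutathione and thioredoxin enzymes, superoxide and peroxide enzymes, NADPH supply and drug metabolism, heme and iron, metal response, and heat shock and stress. None of the 64 promoters or 93 bodies measured was called by the overdispersed fit, as in the members and over all genes (0% called). An unadjusted p under 0.05 was reached by 3 of the 64 and 5 of the 93, against 5.03% of all promoters and 5.72% of all bodies. Groups did not overlap in 1 of the 64 and 3 of the 93, against 2.95% and 3.89% of all. Their median levels, 1.78% and 39.6%, compare with 1.79% and 55.1% over all genes. Arsenic was the lower group in 35 of the 64 promoters and 53 of the 93 bodies, against 52.3% of all promoters and 61.4% of all bodies. At the extremes, the promoter of Glrx, which encodes glutaredoxin, stood at 5.90% ± 3.62 in control and 14.4% ± 5.20 in arsenic pools over 3 cytosines (exact p = 0.0571, adjusted p = 0.851), and that of Dnajb1, an HSP40 chaperone, differed by 1.43 points. The promoters of Hmox2, the constitutive heme oxygenase, and Mgst1, a microsomal glutathione transferase, differed by −4.06 and −3.97 points, with high control pools of 16.7% for Hmox2 and of 7.89% and 8.07% for Mgst1. Among the bodies, Gpx3, plasma glutathione peroxidase, stood at 16.3% to 18.9% in control and 19.7% to 24.8% in arsenic pools, as 1 of those 3 bodies without overlap (exact p = 0.0286, adjusted p = 0.862). Tfrc, the transferrin receptor, differed by 4.35 points, Aldh3a1, an aldehyde dehydrogenase, by −3.49 and Gpx2, the intestinal glutathione peroxidase, by −4.08, all with overlapping groups.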

How the data were processed

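The authors prepared RRBS libraries from 8 pools, and the submitters' processing notes name Trim Galore 0.6.5, Bismark 0.22.3, methylKit 1.22.0 and mm10. The deposited table holds counts, with no normalization: for each cytosine and pool, the reads covering it, those with C and those with T, strands apart. Of its 2131605 rows, 2130064 on chromosomes 1 to 19, X and Y were used, all with at least 10 reads in every pool. The mice were C3H/HeN and the reference is another strain; strain differences were not looked for. Reads carry no molecular identifiers, so intervals and floors cover counting error only.

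Groups came from the sample titles. Each level is an unweighted mean over cytosines. DMCs were called from the closed-form likelihood-ratio test of a logistic regression. Counts summed over each region of all curated RefSeq genes with at least 3 cytosines there were tested by an F test in a logistic regression whose errors were scaled for overdispersion. Adjusted p values (q) are Benjamini-Hochberg values over all cytosines or genes. A region's adjusted p tests counts summed over cytosines and pools, so it need not match the unweighted difference printed with it. Exact p values are two-sided permutation tests over the 70 assignments and are unadjusted. The pools shared no stated litter or batch. The code was tested on simulated data. The work was done in R 4.3.3 with limma 3.58.1 and in Python 3.11.15 with matplotlib 3.10.9, pandas 2.3.3, scipy 1.17.1 and numpy 2.4.6.

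All members are named, with their DMCs or cytosines without overlap. From the pathway lists, genes past the threshold are named, otherwise the 2 lowest and 2 highest differences per region. Other stretches were singled out after their values were seen. The members and lists were chosen with earlier results of these data known. Sequences are from RefSeq GRCm38.p6.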

Additional observations from a re-analysis of the deposited data

Results flagged for a closer look

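In 4 of the 38 groups of 4 pools looked at over the member promoters, bodies and upstream stretches, 1 pool lay far from the other 3. Chance alone gives this in about 1 of 20 groups of normally distributed values. That rate does not apply to the Gclm and Mt1 groups, where the other pools were at 0% and any methylated read meets the criterion.

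For the Gclm promoter arsenic 1 stood at 43.3% and the other arsenic pools at 0%. For the Mt2 promoter control 3 stood at 9.61% and the other control pools at 1.39% to 2.65%. For the Mt1 promoter, measured at 3 cytosines, control 4 stood at 2.30% and arsenic 2 at 2.47%, each against 0% in the other pools of its group. In Gclm the pool's value recurred along the plus-strand cytosines of 1 fragment. It was 0.66% on the minus strand of the next one, where 11 to 38 reads covered each cytosine in each pool. The part of the read depth in these values was not tested.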

How the results depend on the processing

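The promoter, gene body and upstream calls stayed at 0 under coverage of at least 20 or 30 reads, with the deepest 0.1% left out, strands summed, coverage weights, at least 1 or 10 cytosines, all starts joined, limma and each pool left out. Without overdispersion 2 member promoters and 2 bodies were called. DMCs in the members numbered 1 with at least 5 points (Nqo1 +13379; 16307 over all cytosines), 1 at q of at most 0.05 (Mt2 −1149; 34942 over all), and 0 to 2 with a pool left out (11533 to 13107 over all): 2 without control 2 (Gclm +389, Txnrd1 +33051), 1 without control 3 (Gclm +389), 1 without control 4 and 2 without arsenic 4 (Nqo1 +13379 in both, Txnrd1 +51013 in the second), and 1 without arsenic 2 (Mt2 −1149). Groups without overlap numbered 0 to 1 for the promoters (Gclm without arsenic 1, at −2.66 points, with 655 to 747 of all 11960 promoters against 353 with every pool) and 0 to 3 for the bodies (Keap1, Mt1 and Nfe2l2 without arsenic 3, at 3.34, 0.78 and 2.88 points; Mt2 without control 2; Nqo1 without arsenic 4, at 4.43 points; 1234 to 1452 of all 19051 bodies, against 742). Upstream, the Mt1 groups did not overlap without control 3, at −5.69 points. The share of all upstream stretches that did so in that setting was not counted, so this is not read as a result about Mt1. Leaving out a pool raised such counts over all promoters and bodies. Of 290 gene values recomputed, 281 moved by less than 1 SD or kept their call, and 63 had the other sign.

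The replicate numbers of the labels, 1 to 4 in both groups, were looked at for pairing. Deviations of same-numbered pools correlated at −0.000078 to 0.0018, and those of the other pairs at −0.0023 to 0.0025. Deviations of single cytosines carry counting error, so these values cannot tell whether same-numbered pools shared a litter or batch. With the replicate number as a block, 0 members were DMCs and 0 member promoters, bodies or upstream stretches were called, and over all cytosines 12549 DMCs stood against 11752.

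Depth limits the comparisons: coverage of at least 30 reads left 252 of the 757 members and 2 of the 6 promoters. At their most upstream starts 4 promoters had no covered cytosine; joining all starts added Txnrd1, and Nfe2l2, Keap1 and Gclc still had no promoter value.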

Other observations

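In Gclc 1 CpG near the gene end, at +38165, stood at 0% to 1.85% on the plus strand and 0% on the minus strand in all pools, over 107 to 203 reads per pool on the minus strand. The next covered cytosines stood at 21.6% (+38080) and 90.01% (+38241). In Txnrd1 the cytosine at +20338 stood at 29.95% between 53.7% at +20254 and 69.01% at +20469. The strain's own sequence at these sites was not analysed here.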
